A study of Mus musculus with 6 samples.

Results

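The lipocalins secreted into epididymal fluid were examined as a family of 8 genes, Lcn2, Lcn5, Lcn6, Lcn8, Lcn9, Lcn10, Lcn12 and Ptgds. They were taken by gene symbol from a count table of 57127 genes. The libraries came from whole epididymis of adult C57BL/6 mice, 3 from wild type (WT) and 3 from Ocln-/- (Ocln-KO) animals, which lack occludin, a protein of tight junctions. The knockout is carried by the whole animal, testis included, and Ocln-KO males, which are sterile, were bred from heterozygous parents. The study describes separate extraction from 3 pairs of mice but also pooled RNA, so n counts libraries here. The p-values measure the spread between these libraries.

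Lipocalins are small secreted proteins that fold into a barrel with a pocket for a fat-soluble ligand. In the epididymis the principal cells of the epithelium secrete several of them into the duct, where maturing sperm are bathed in them, and many are made in a particular stretch of the duct from the initial segment through the caput and corpus to the cauda. Lcn5 (also known as epididymal retinoic acid-binding protein) and Lcn8 carry retinoids, Lcn12 also binds retinoic acid, and Lcn6 associates with sperm. Lcn2 binds bacterial siderophores and thereby withholds iron from microbes, and it is both a neutrophil granule protein and an acute-phase product of epithelia. Ptgds is a lipocalin and an enzyme at once: it converts prostaglandin H2 to prostaglandin D2 and also carries hydrophobic ligands.

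The libraries held between 30646424 and 38870780 counts, and counts were scaled to CPM, the usual unit of counts relative to the size of the library, in which 1 count equals 0.0267 to 0.0314 CPM. Ocln was read at 78.7 to 91.7 CPM in WT and at 14.9 to 15.3 CPM in Ocln-KO, so each library went with its label. A protocol field of the sample records names prefrontal cortex, whereas the 8 brain markers summed to 21.8 to 30.8 CPM and the epididymal gene Crisp1 ran from 4436 to 16754 CPM. Of 10 markers of the initial segment, however, Cst8, Cst11, Rnase10 and Adam28 stayed under 1 CPM in every library, while Rnase9 had 1510 to 3364 CPM and Ros1 208 to 420 CPM. Ocln-KO replicate 1 differed from the other Ocln-KO libraries in several lipocalins, and values without it are given where it decides a result. Ocln-KO replicate 3 stood apart on the first principal component of all genes, at 86.3 against 17.7 and 29.1 for the other Ocln-KO libraries, and was lowest in the summed corpus and cauda markers (7300 CPM) and sperm markers (167 CPM against 529 and 531 CPM). Without it the log2 fold change was -1.30 for Ptgds (edgeR adjusted p = 0.0178) and 0.88 for Lcn2 (edgeR adjusted p = 0.0429).

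Of the 8 genes, 7 have their starts within 353.1 kb of chromosome 2 in GRCm38, and Lcn2 lies further along the same chromosome at chr2:32384633-32388252 on the minus strand. Ptgds (chr2:25466709-25470046) and Lcn12 (chr2:25490845-25493911) are on the minus strand. Lcn8 (chr2:25653120-25656217), Lcn5 (chr2:25657952-25661977), Lcn6 (chr2:25676786-25681608), Lcn10 (chr2:25682726-25686081) and Lcn9 (chr2:25823153-25825537) follow on the plus strand. All 8 are protein-coding. None of their exon bases is shared with another annotated gene, and none of their 100-base transcript windows occurs in the transcripts of another gene. This covers exact matches to annotated transcripts only. Copies with mismatches or outside the annotation were not searched for.

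The sequences just before the start sites of Lcn5, Lcn12, Ptgds and Lcn2 are shown because these are the genes the results turn on: Lcn5 and Lcn12 varied together, Ptgds was lower and Lcn2 higher in Ocln-KO. They are RefSeq promoters of GRCm38.p6, read 5′ to 3′ on the strand of the gene. For Ptgds and Lcn2 only the stretch free of annotated exons is printed. Capitals mark a TATA box (TATAAA) in Lcn5 and a steroid hormone response half-site (AGAACA) in Lcn12. The windows are chr2:25657702-25657951 on the plus strand for Lcn5, and chr2:25493912-25494161, chr2:25469843-25469999 and chr2:32387798-32387850 on the minus strand for Lcn12, Ptgds and Lcn2.
Lcn5: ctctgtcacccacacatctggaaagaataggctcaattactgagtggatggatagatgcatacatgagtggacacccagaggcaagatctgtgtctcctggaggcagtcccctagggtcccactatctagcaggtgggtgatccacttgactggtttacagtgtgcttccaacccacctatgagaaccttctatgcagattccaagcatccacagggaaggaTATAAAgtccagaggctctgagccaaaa
Lcn12: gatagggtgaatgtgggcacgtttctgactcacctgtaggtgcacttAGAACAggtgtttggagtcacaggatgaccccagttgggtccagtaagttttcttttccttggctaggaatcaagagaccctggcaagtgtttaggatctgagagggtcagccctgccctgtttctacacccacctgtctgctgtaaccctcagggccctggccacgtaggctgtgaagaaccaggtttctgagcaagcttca
Ptgds: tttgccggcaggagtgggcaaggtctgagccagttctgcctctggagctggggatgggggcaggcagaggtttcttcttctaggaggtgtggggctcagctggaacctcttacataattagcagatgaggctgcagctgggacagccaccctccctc
Lcn2: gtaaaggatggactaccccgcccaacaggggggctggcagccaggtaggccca

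The 250 bases before each start site were searched on both strands for 6 motifs, namely the TATA box and the half-site given above, a forkhead motif (TGTTTAC), a C/EBP motif (TTGCNNAA), an ETS motif (CAGGAAG) and an NF-kB motif. TATAAA was found 28 bases before the start of Lcn5 and in no other member, against 12.4% of 32851 promoters. AGAACA was found before Lcn6, Lcn9, Lcn10 and Lcn12, against 16.1% of promoters. The C/EBP motif was found before Lcn8 and Lcn2, against 9.56%, and the ETS motif before Lcn2, against 10.8%. The matches of Lcn2 all lie in annotated exon sequence of other Lcn2 transcripts, outside the stretch printed above. The forkhead motif, held by 3.17% of promoters, and the NF-kB motif, held by 1.41%, were in none of the 8 windows, and the Ptgds window held none of the 6 motifs. A match is a description of letters and is no evidence of binding.

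Ptgds was lower in Ocln-KO and Lcn2 was higher, while Lcn5, Lcn6, Lcn8 and Lcn12 passed the test in neither direction. All 8 lipocalins had counts, and 6 of them were abundant enough to be tested, which left out Lcn9 and Lcn10. The 6 were therefore split into 1 lower, 1 higher and 4 with no call at an adjusted p under 0.05 (the quasi-likelihood test of edgeR, Benjamini-Hochberg adjusted over 19691 genes). Over all genes tested, 5.04% were lower and 3.91% were higher by the same rule, 8.95% in all. Of the same 19691 genes, DESeq2 called 1708 lower and 1604 higher, and limma-voom 1050 lower and 729 higher. The share of all genes at an unadjusted p under 0.05 is not reported here. Ptgds and Lcn2 were also the only tested lipocalins whose WT and Ocln-KO libraries did not overlap, a pattern that 36.3% of all tested genes had, 19.4% with Ocln-KO lower and 16.9% with Ocln-KO higher. With the thresholds of the study's methods, which add a fold change over 2 or under 0.5, Ptgds and Lcn2 both kept their call, against 1.70% lower and 1.49% higher over all genes.

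**Figure D1:**
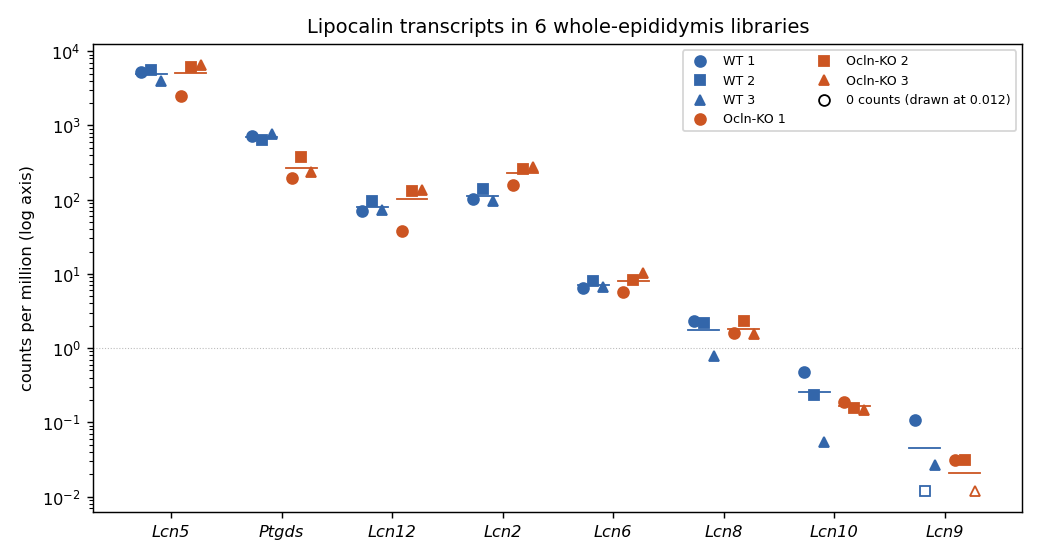
CPM of the 8 lipocalins in each of the 6 libraries on a log axis, with blue for WT, orange for Ocln-KO and a bar at each group's mean, and open symbols for libraries with 0 counts. The genotypes separate for Ptgds and Lcn2, and Ocln-KO replicate 1 lies below the other libraries for Lcn5 and Lcn12.

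**Figure D2:**
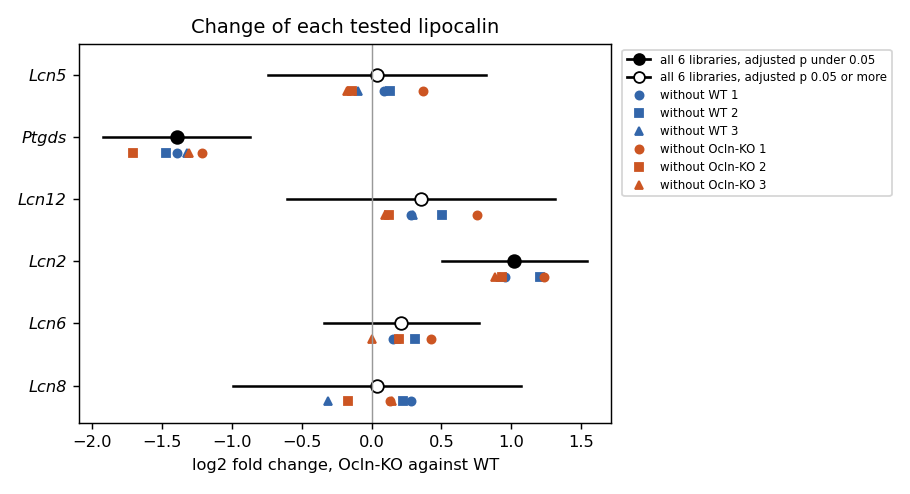
Log2 fold change of each tested lipocalin in Ocln-KO against WT, with black bars for 95% intervals, filled points for an adjusted p under 0.05, and small symbols for the estimate after leaving out each library. Ptgds stays between -1.71 and -1.21 and Lcn2 between 0.88 and 1.23 in these estimates, whereas those of Lcn5 and Lcn8 fall on both sides of 0.

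The levels per length spanned about 5 orders of magnitude. In RPKM, which are CPM divided by the kilobases of exon, Lcn5 had a level of 5583 ± 998 in WT and 5729 ± 2534 in Ocln-KO (SD, n = 3 each). By this level it ranked 5 of the 34235 genes with a length in WT. The level of Ptgds followed at 427 ± 42.0 RPKM in WT and 162 ± 56.0 RPKM in Ocln-KO. Lcn12 had a level of 100 ± 17.6 RPKM in WT and 128 ± 70.0 RPKM in Ocln-KO. The level of Lcn2 was 43.1 ± 9.27 RPKM in WT and 87.5 ± 23.4 RPKM in Ocln-KO.

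Lcn6 and Lcn8 stood far below these genes. Their levels in WT were 4.31 ± 0.516 RPKM and 2.70 ± 1.30 RPKM. Lcn10 and Lcn9 were at the bottom with mean WT levels of 0.232 RPKM and 0.0531 RPKM. The order of the mean levels was the same in both genotypes, and in WT it was also the same with the longest transcript as the length. With that length Lcn2, at 167 RPKM, passed Lcn12, at 142 RPKM, in Ocln-KO. In Ocln-KO the neighbours Ptgds, Lcn12 and Lcn2 overlapped. Ptgds had levels of 120, 226 and 141 RPKM there, Lcn12 had 47.6, 167 and 171 RPKM, and Lcn2 had 60.7, 97.7 and 104 RPKM. In WT the libraries of Ptgds, Lcn12 and Lcn2 did not overlap.

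Ptgds, which makes prostaglandin D2, fell in Ocln-KO. Its WT libraries had 711, 631 and 769 CPM and its Ocln-KO libraries 198, 372 and 233 CPM. The lowest WT library lay well above the highest Ocln-KO library, replicate 2. The log2 fold change was -1.40 (standard error 0.23, 95% interval -1.92 to -0.87, Benjamini-Hochberg adjusted p = 0.0201 by the quasi-likelihood test of edgeR), or 2.63-fold lower. In bulk RNA, fewer cells of a type and less RNA per cell cannot be told apart. The call was lost when a WT library was left out, with an edgeR adjusted p of 0.0940 without WT replicate 1, 0.0550 without replicate 2 and 0.0887 without replicate 3, and it ran from 3.57e-08 to 0.0940 over 15 alternatives. Most calls over all genes were lost in the same fits. With all libraries edgeR called 992 genes lower and 770 higher. It called 19 and 4 without WT replicate 1, 145 and 85 without replicate 2, and 40 and 16 without replicate 3.

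Around Ptgds, the prostaglandin D2 pathway did not move as a block. Of 12 genes listed for it, 9 were tested, and Ptgds, Cbr1 and Hpgd were lower and Ptgs2 higher by the test named above, with a median log2 fold change of -0.10 against 0.01 over all genes. Ptgs2, the inducible cyclooxygenase that supplies the substrate of Ptgds, had 10.1, 10.6 and 9.44 CPM in WT against 16.5, 18.6 and 19.5 CPM in Ocln-KO. Every Ocln-KO library was above every WT library, and its log2 fold change was 0.85 (standard error 0.13, edgeR adjusted p = 0.0164). The constitutive cyclooxygenase Ptgs1 overlapped between genotypes, with 176 to 186 CPM in WT against 151 to 266 CPM in Ocln-KO.

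The haematopoietic prostaglandin D synthase Hpgds, which makes the same product without being a lipocalin, had 1.58, 2.49 and 1.96 CPM in WT against 3.24, 3.83 and 5.17 CPM in Ocln-KO. Its libraries did not overlap and lay opposite to those of Ptgds. Its log2 fold change of 1.02 missed the threshold in edgeR (standard error 0.29, 95% interval 0.34 to 1.70, edgeR adjusted p = 0.0678). DESeq2 called Hpgds higher and limma-voom did not, so this call depended on the method. Hpgd, which inactivates prostaglandins, fell from 100 ± 5.06 to 72.2 ± 8.42 CPM (SD, n = 3 each, log2 fold change -0.48, edgeR adjusted p = 0.0359). Cbr1, a carbonyl reductase that acts on prostaglandins among other substrates, fell from 84.9 ± 8.39 to 47.6 ± 9.88 CPM (SD, n = 3 each, log2 fold change -0.84, edgeR adjusted p = 0.0245). The receptors of prostaglandin D2, Ptgdr and Ptgdr2, were at most 0.311 CPM in any library and were not tested.

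Markers of the distal duct moved in the direction of Ptgds. The 10 corpus and cauda markers summed to 21418 to 26285 CPM in WT against 7300 to 15615 CPM in Ocln-KO. Crisp1 supplied most of this sum, with 12477 to 16754 CPM in WT against 4436 to 9948 CPM in Ocln-KO, and did not pass (edgeR adjusted p = 0.0855). Of the 10 markers, Sult1e1 and Gpx3 were lower and Akr1b7 higher by the edgeR test. All Ocln-KO libraries lay below all WT libraries for 7 of the 10, against 19.4% of all genes tested. None of the 10 was at 0 in all libraries. Markers of clear cells, the proton-secreting cells of the epididymal epithelium, moved the same way. The 9 clear cell markers summed to 135 to 162 CPM in WT and 91.3 to 121 CPM in Ocln-KO. Of 7 tested, Foxi1, Atp6v1b1, Atp6v0d2 and Atp6v0a4 were lower by edgeR. None was higher by edgeR, at an unadjusted p under 0.05 or by DESeq2. Every Ocln-KO library lay below every WT library for 6 of the 7, against 19.4% of all genes tested. None of the 9 was at 0 in all libraries. The part of either shift in the Ptgds result was not tested.

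Lcn2, the siderophore-binding lipocalin, rose in Ocln-KO. Its WT libraries had 102, 141 and 96.2 CPM and its Ocln-KO libraries 159, 256 and 273 CPM. Ocln-KO replicate 1 lay just above WT replicate 2, and the other Ocln-KO libraries stood clear of WT. The log2 fold change was 1.02 (standard error 0.22, 95% interval 0.50 to 1.54, Benjamini-Hochberg adjusted p = 0.0362 by the quasi-likelihood test of edgeR). The call was lost without WT replicate 1 (adjusted p = 0.137, edgeR), WT replicate 2 (0.0604), WT replicate 3 (0.137) or Ocln-KO replicate 2 (0.0908), and the adjusted p ran from 0.000133 to 0.137 over 15 alternatives. Calls over all genes also fell in these fits, to 342 lower and 220 higher without Ocln-KO replicate 2.

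C3 was the other acute-phase gene called with Lcn2 by edgeR. Of 24 listed acute-phase and NF-kB target genes, 13 were tested, Lcn2 and C3 were higher at an edgeR adjusted p under 0.05, and the median log2 fold change was 0.19. None was lower by edgeR or by DESeq2. At an unadjusted p under 0.05 in edgeR 5 were higher and 1 lower, and DESeq2 and limma-voom each called 3 higher. Of the 13 tested, 5 had every Ocln-KO library above every WT library, against 16.9% of all genes tested, and Lcn2 itself is among these 5. In 1 of the 13 every Ocln-KO library was below every WT library, against 19.4% of all genes tested. C3, the central complement component, had 223, 251 and 222 CPM in WT against 350, 385 and 636 CPM in Ocln-KO. The genotypes did not overlap, and the log2 fold change was 0.98 (standard error 0.22, edgeR adjusted p = 0.0364). Nfkbiz, a nuclear regulator through which Lcn2 is induced, had 14.8 to 24.1 CPM in WT against 29.3 to 31.8 CPM in Ocln-KO. Its libraries did not overlap either, but the adjusted p was 0.0568 (edgeR). The serum amyloid genes Saa1, Saa2 and Saa3, the cytokines Il6, Il1b and Tnf and the chemokines Cxcl1, Cxcl2, Cxcl5 and Ccl20 were among 11 genes of the list that stayed at or under 0.473 CPM in every library.

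Lcn2 is also carried by neutrophils, and most markers of these cells were nearly absent. Of 13 neutrophil markers, 4 were tested, and 10, among them S100a8, S100a9, Camp, Ngp, Mpo, Elane and Ly6g, stayed under 1 CPM in every library. Summed over the 13, they had 126 to 270 CPM in WT against 79.5 to 83.7 CPM in Ocln-KO, nearly all from lactoferrin (Ltf). Ltf, an iron-binding protein of secretions as well as of neutrophils, had 117, 136 and 259 CPM in WT against 70.7, 75.9 and 66.3 CPM in Ocln-KO. It therefore went the opposite way to Lcn2, with no overlap between genotypes (log2 fold change -1.27, standard error 0.28, edgeR adjusted p = 0.0354). Csf3r, also tested, went the way of Lcn2 but overlapped. It had 1.04, 2.11 and 0.457 CPM in WT against 1.90, 2.48 and 4.49 CPM in Ocln-KO (log2 fold change 1.30, edgeR adjusted p = 0.176). Mmp8 and Mmp9, the remaining tested markers, overlapped with log2 fold changes of -0.80 and -0.28 (edgeR adjusted p = 0.594 and 0.429). The 10 macrophage markers summed to 220 to 264 CPM in WT against 266 to 466 CPM in Ocln-KO. None of them passed the adjusted edgeR test, while 6 were higher and 1 lower at an unadjusted p under 0.05 and DESeq2 called 3 higher. None was at 0 in all libraries. The 10 lymphocyte markers summed to 4.33 to 4.60 CPM in WT and 11.4 to 17.2 CPM in Ocln-KO, and their median log2 fold change was 1.28. Of 6 tested, Jchain was higher by edgeR, and 5 had every Ocln-KO library above every WT library, against 16.9% of all genes tested. None of the 10 was at 0 in all libraries. The part of these cells in the Lcn2 result was not tested.

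Among 12 genes of iron and siderophore handling, 11 were tested, and by the adjusted edgeR test Lcn2 was higher and Ltf lower. The median log2 fold change was -0.26. At an unadjusted p under 0.05 in edgeR 4 were lower and 1 higher, and DESeq2 called 2 lower and 1 higher. Without overlap, 4 of the 11 were lower and 1 higher, against 19.4% and 16.9% of all genes tested. The cell-surface receptor of Lcn2, Slc22a17, had 15.9 to 18.7 CPM in WT against 18.3 to 24.2 CPM in Ocln-KO, which overlapped (log2 fold change 0.23, 95% interval -0.09 to 0.56, edgeR adjusted p = 0.312). Megalin (Lrp2), an endocytic receptor that takes up lipocalins including Lcn2, had 739, 742 and 917 CPM in WT against 474, 332 and 208 CPM in Ocln-KO. All Ocln-KO libraries were lower, with replicate 3 the lowest (log2 fold change -1.24, standard error 0.27, edgeR adjusted p = 0.0351). Of 7 receptor and uptake genes in the table, 6 were tested, Lrp2 was lower and Stra6 higher, and the related receptor Lrp1 had a log2 fold change of 0.12 (95% interval -0.16 to 0.40).

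**Figure D3:**
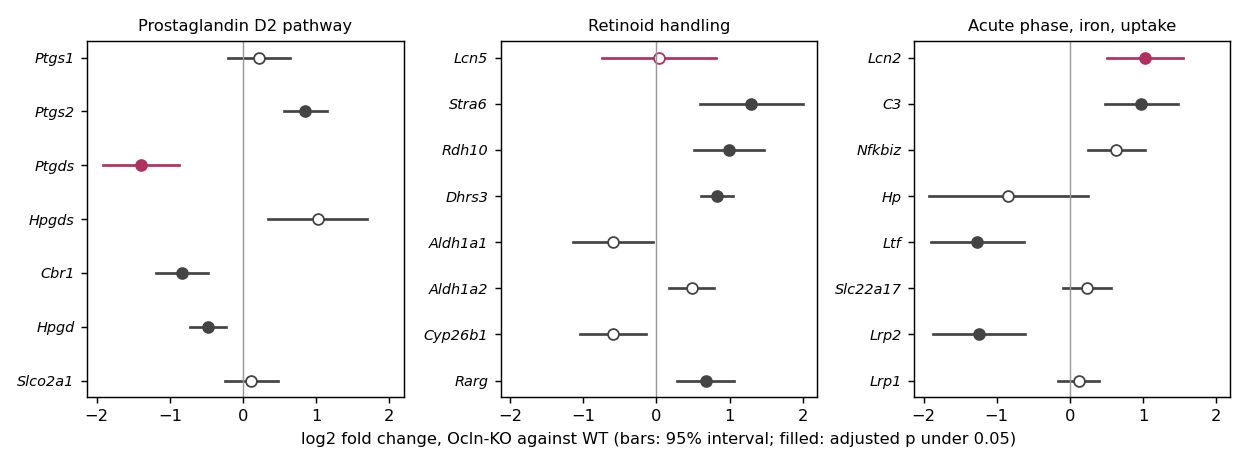
Log2 fold changes in Ocln-KO against WT, with 95% intervals, for lipocalins (red) and listed genes of the same pathways (grey), where filled points passed an adjusted p of 0.05. Ptgds at -1.40 stands against Ptgs2 at 0.85 and Hpgds at 1.02, and Lcn2 at 1.02 beside C3 at 0.98 stands against Ltf at -1.27 and Lrp2 at -1.24.

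Lcn5, the most abundant of the family, had a similar mean in both genotypes but very unequal Ocln-KO libraries. Its WT libraries had 5275, 5575 and 3923 CPM and its Ocln-KO libraries 2477, 6213 and 6470 CPM. Ocln-KO replicate 1 was the lowest of the 6 libraries and the other Ocln-KO libraries were the highest, so that the Ocln-KO values lay on both sides of WT. The log2 fold change was 0.04 (standard error 0.34, 95% interval -0.74 to 0.82, edgeR adjusted p = 0.956). The interval covers a change of over 1.5-fold in either direction, so these libraries could not show a smaller difference.

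Lcn12, which also binds retinoic acid, followed the same order of libraries as Lcn5 in Ocln-KO. It had 70.9, 95.3 and 71.6 CPM in WT against 37.6, 132 and 135 CPM in Ocln-KO. Ocln-KO replicate 1 was again below all WT libraries and the other Ocln-KO libraries above them. With all libraries the log2 fold change was 0.36 (standard error 0.41, 95% interval -0.60 to 1.31, edgeR adjusted p = 0.616). Without Ocln-KO replicate 1 it was 0.76 with an adjusted p of 0.0294 (edgeR), so 1 library decided this call, and over 15 alternatives the adjusted p ran up to 0.908.

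Lcn6, the sperm-associated member, had 6.38, 7.93 and 6.62 CPM in WT against 5.64, 8.31 and 10.3 CPM in Ocln-KO. The genotypes overlapped, with Ocln-KO replicate 1 lowest and replicate 3 highest (log2 fold change 0.21, standard error 0.24, 95% interval -0.34 to 0.77, edgeR adjusted p = 0.600). Lcn8, the other retinoid carrier, had 2.30, 2.20 and 0.780 CPM in WT against 1.59, 2.29 and 1.54 CPM in Ocln-KO. WT replicate 3 was the lowest library, and the genotypes overlapped (log2 fold change 0.04, standard error 0.44, 95% interval -0.99 to 1.07, edgeR adjusted p = 0.965). Lcn8 rested on 29 to 86 counts per library.

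Lcn10 and Lcn9 were at the edge of detection. Lcn10 had 18, 8 and 2 counts in WT and 6, 5 and 5 counts in Ocln-KO. Lcn9 had 4, 0 and 1 counts in WT and 1, 1 and 0 counts in Ocln-KO, where 3 counts equal 0.0801 to 0.0941 CPM. The libraries overlapped for both genes, and no difference was detectable at this depth. When all genes with a count were fitted, their log2 fold changes were -0.64 (standard error 0.92, edgeR adjusted p = 0.713) for Lcn10 and -1.01 (standard error 1.69, edgeR adjusted p = 0.759) for Lcn9, although Lcn9 stood near 0 in both genotypes. Lcn8, Lcn9 and Lcn10 were at or under 2.30 CPM in every library, and so were the initial segment markers Cst8, Cst11, Rnase10 and Adam28. Other markers of that list were abundant, with Rnase9 at 1510 to 3364 CPM and Ros1 at 208 to 420 CPM.

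The lipocalins fell into genes that varied together between libraries of the same genotype and genes that did not. Over the 6 libraries, with each genotype centred on its own mean log2 CPM, Lcn5 and Lcn12 correlated at r = 0.96, Lcn6 and Lcn12 at 0.94, Lcn2 and Lcn6 at 0.94, Lcn2 and Lcn12 at 0.92, Lcn2 and Lcn5 at 0.91, and Lcn5 and Lcn6 at 0.89. Ptgds correlated with these and with Lcn8 at 0.10 to 0.58, and Lcn8 with the others at 0.10 to 0.43. These are descriptions of 6 libraries that share a scaling, and Ocln-KO replicate 1 supplies much of the range. Relative to its own mean over the 6 libraries, Lcn5 stood at -0.94 in Ocln-KO replicate 1 and at 0.39 and 0.45 in the other Ocln-KO libraries on the log2 scale. Lcn12 stood at -1.14, 0.67 and 0.70 in the same libraries.

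**Figure D4:**
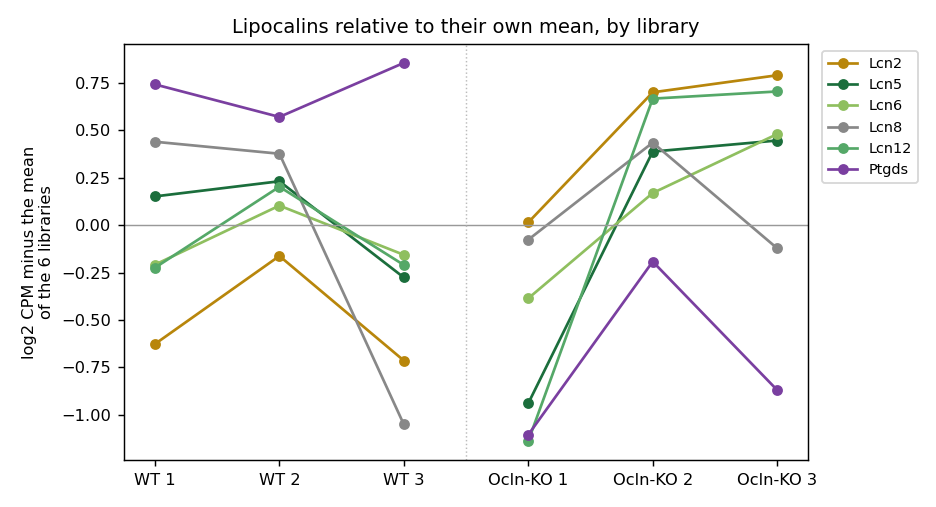
Log2 CPM of the 6 tested lipocalins in each library minus the gene's mean over all 6 libraries, with lines that join the values of a gene within a genotype as a guide only. Lcn5, Lcn12, Lcn6 and Lcn2 share a low value in Ocln-KO replicate 1 relative to the other Ocln-KO libraries, and Ptgds is above its mean in every WT library and below it in every Ocln-KO library.

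Among the Ocln-KO libraries the summed caput markers were lowest in replicate 1, as were Lcn5 and Lcn12, but Gpx5 supplied much of that gap. In this sum Ocln-KO replicate 1 lay inside the WT range, whereas its Lcn5 and Lcn12 lay below every WT library. Single caput markers of this library went both ways. Below every WT library lay Adam7, Crisp4 (71.6 against 158 to 206 CPM), Defb21 (176 against 241 to 410 CPM) and Rnase13 (21.1 against 22.3 to 51.9 CPM). Spint4, Gpx5, Defb15 and Spag11b lay above every WT library. In Ocln-KO replicates 1, 2 and 3 the caput marker Adam7 had 5067, 9296 and 6400 CPM and Spint4 had 4988, 2971 and 2824 CPM. The 10 caput markers summed to 11915, 12354 and 9598 CPM in WT against 10645, 20647 and 20493 CPM in Ocln-KO. Gpx5, a caput glutathione peroxidase, had 54.4, 172 and 26.3 CPM in WT against 256, 7258 and 10031 CPM in Ocln-KO. Gpx5 is known as an abundant caput transcript, but its level was low in WT and in Ocln-KO replicate 1. Like the near absence of Cst8, Cst11 and Rnase10, this leaves uncertain how fully these libraries represent the proximal duct. The markers were split, however. In WT, Adam7 had 5999 to 8509 CPM and Spint4 2985 to 3350 CPM, while Defb15 and Spag11b had at most 27.4 and 0.527 CPM. Of the initial segment markers, Rnase9 had 2045 to 3015 CPM and Ros1 208 to 325 CPM in WT. Whether sampling or counting set the low levels, and those of the lipocalins made in the proximal duct, was not tested. The gap between Ocln-KO replicate 1 and the other Ocln-KO libraries was much wider for Gpx5 than for any lipocalin. Of the 10 caput markers 8 were tested, Gpx5, Defb15 and Spag11b were higher by the edgeR test, none was lower by edgeR, at an unadjusted p under 0.05 or by DESeq2, and 2 had no count in any library. The 10 initial segment markers summed to 3516, 3512 and 2434 CPM in WT against 1916, 4058 and 3899 CPM in Ocln-KO, and none of the 7 tested passed in edgeR or DESeq2, with 1 at an unadjusted p under 0.05 in edgeR. The part of these markers in the lipocalin values was not tested.

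As a share of all counts, the 8 lipocalins took 0.594%, 0.628% and 0.475% in WT and 0.302%, 0.705% and 0.735% in Ocln-KO. The sum followed Lcn5, which supplied 80.6% to 86.4% of lipocalin counts in WT and 86.0% to 90.8% in Ocln-KO. Ptgds supplied 11.5%, 9.78% and 15.8% in WT and 6.87%, 5.33% and 3.27% in Ocln-KO, without overlap. Ratios within a library do not depend on its scaling, but those with Ptgds or Lcn2 reuse the values behind the calls of these genes. There were 7.42, 8.83 and 5.10 Lcn5 counts per Ptgds count in WT and 12.5, 16.7 and 27.8 in Ocln-KO.

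The counts of Lcn5 per count of Lcn12 were 74.4, 58.5 and 54.8 in WT and 65.8, 47.2 and 47.9 in Ocln-KO, with Ocln-KO replicate 1 inside the WT range. The counts of Lcn2 per count of Ptgds were 0.144, 0.223 and 0.125 in WT and 0.806, 0.689 and 1.17 in Ocln-KO. This ratio had to separate the genotypes, since both genes did so in opposite directions, and it adds no support to their calls. The counts of Lcn5 per count of Lcn2 were 51.6, 39.6 and 40.8 in WT and 15.5, 24.2 and 23.7 in Ocln-KO, again without overlap.

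Retinoids are the cargo of Lcn5, Lcn8 and Lcn12, and several genes that handle them rose in Ocln-KO. Of 22 listed genes 17 were tested, Stra6, Rdh10, Dhrs3 and Rarg were higher by edgeR, and the median log2 fold change was 0.26. None was lower at an adjusted p under 0.05 in edgeR, where 3 were lower at an unadjusted p under 0.05, and DESeq2 called 1 lower, Cyp26b1. Without overlap, 5 of the 17 were higher and 3 lower, against 16.9% and 19.4% of all genes tested. The lower genes included Cyp26b1 (26.6 CPM in WT against 17.7 CPM in Ocln-KO) and Rdh11 (30.0 against 24.7 CPM). Dhrs3, which returns retinaldehyde to retinol, had 48.9, 56.0 and 49.1 CPM in WT against 97.3, 87.2 and 88.7 CPM in Ocln-KO. The replicates were tight and the genotypes far apart (log2 fold change 0.83, standard error 0.09, edgeR adjusted p = 0.00863). Rdh10, which catalyses the opposite step from retinol to retinaldehyde, rose from 5.74 ± 0.604 to 11.4 ± 2.52 CPM (SD, n = 3 each, log2 fold change 0.99, edgeR adjusted p = 0.0322).

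Stra6, the membrane receptor through which cells take up retinol, rose from 2.23 ± 0.312 to 5.49 ± 1.89 CPM (SD, n = 3 each, log2 fold change 1.30, edgeR adjusted p = 0.0416). Rarg, a retinoic acid receptor, rose from 22.8 ± 4.31 to 36.3 ± 5.74 CPM (SD, n = 3 each, log2 fold change 0.67, edgeR adjusted p = 0.0483). The retinaldehyde dehydrogenase Aldh1a1, which makes retinoic acid and was the most abundant of those named here, had 2274, 1989 and 1843 CPM in WT against 1487, 1703 and 861 CPM in Ocln-KO. Its libraries did not overlap, but its log2 fold change of -0.59 did not pass (95% interval -1.14 to -0.05, edgeR adjusted p = 0.144). Of the 11 genes called across the pathway lists, the members apart, 0 passed the edgeR test when WT replicate 1 or 3 was left out, where 20 and 25 listed genes had an unadjusted p under 0.05. Dhrs3 alone passed when WT replicate 2 was left out, and 4 genes passed when Ocln-KO replicate 2 was. Calls over all genes also fell in these fits, as given for Ptgds and Lcn2.

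For each tested lipocalin the genes with the most similar profile were found among 16355 tested genes with a mean of at least 1 CPM, by the root mean square difference of centred log2 CPM over the 6 libraries. Lcn5 lay nearest to Gpc1 (0.0601) and the beta-defensin Defb47 (0.0770). Lcn12 lay nearest to Lrrc9 (0.147) and Mamstr (0.151), and Lcn6 to Yy2 (0.0492) and Ltbp3 (0.0652). Lcn2 lay nearest to Spaca6 (0.0992) and Ppfia4 (0.105), and Ptgds to 4430402I18Rik (0.106) and Efr3b (0.146). Lcn8 lay nearest to Rpl24 (0.150) and Gm7665 (0.157). None of the nearest genes was another lipocalin.

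Neighbours on the chromosome did not share a direction. Between the starts of Ptgds and Lcn9 the annotation has 25 protein-coding genes over 353.1 kb, of which 24 were in the table and 16 tested. Ptgds, C8g and Phpt1 were lower and Ccdc183 was higher by the edgeR test, against 8.95% called over all genes. Lcn12, 23.9 kb from Ptgds and on the same strand, had a log2 fold change of 0.36 against -1.40 for Ptgds. Lcn8, Lcn5, Lcn6 and Lcn10 lie next to each other between 183.1 and 212.7 kb from the start of Ptgds, yet Lcn5 averaged 4924 CPM in WT and Lcn10 averaged 0.256 CPM.

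**Figure D5:**
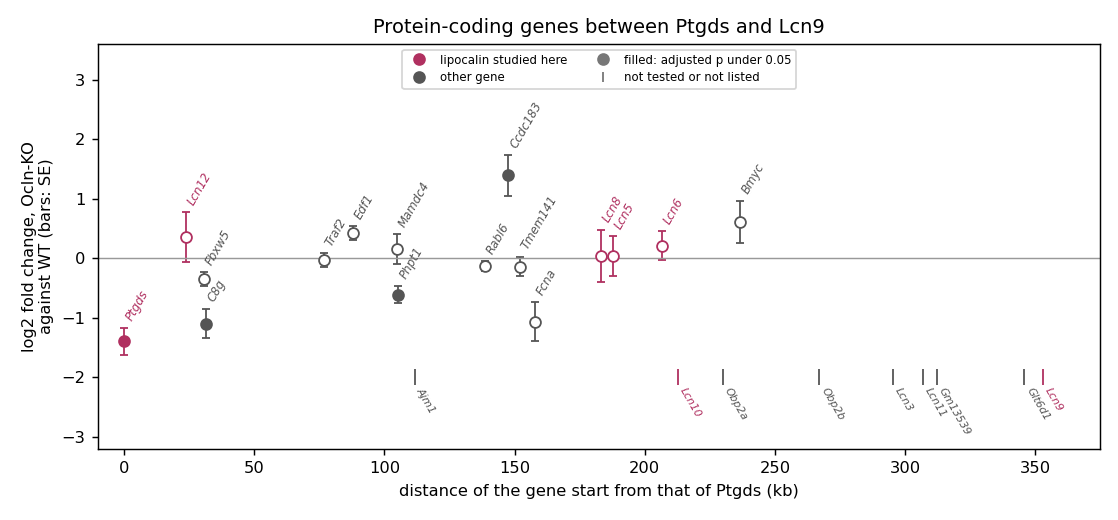
Log2 fold change with standard error of the tested protein-coding genes from Ptgds to Lcn9, by the distance of each gene start from that of Ptgds in kb, with lipocalins in red, filled points for an adjusted p under 0.05, and ticks for genes not tested or not in the table. Ptgds is the lowest point at -1.40, and Lcn8, Lcn5 and Lcn6 lie between 0.04 and 0.21.

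Other genes of the lipocalin superfamily were scarce in this tissue. Of 19 looked for, 15 were in the table, 6 of them had no count in any library and 3 were tested. C8g, a lipocalin subunit of the membrane attack complex whose annotated gene overlaps Fbxw5 on the opposite strand, had 6.28, 4.71 and 7.45 CPM in WT against 3.33, 2.41 and 2.87 CPM in Ocln-KO. It was lower without overlap (log2 fold change -1.10, standard error 0.25, edgeR adjusted p = 0.0385). Apod, an apolipoprotein of the same fold, had 33.8 to 51.7 CPM in WT against 22.4 to 65.6 CPM in Ocln-KO, which overlapped. The retinol carrier Rbp4 had 2.90 to 3.95 CPM in WT against 2.87 to 3.05 CPM in Ocln-KO.

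Transcription factors known to act on epididymal genes had no call in edgeR beside the lipocalins. Of 17 listed, 14 were tested and none passed an edgeR adjusted p of 0.05 in either direction, with a median log2 fold change of 0.24. At an unadjusted p under 0.05 in edgeR 6 were higher and 1 lower, and DESeq2 called 3 higher, Cebpa, Nr3c1 and Nfkbiz. Without overlap, 5 of the 14 were higher and 1 lower, against 16.9% and 19.4% of all genes tested. Cebpb had 7.82 to 10.7 CPM in WT against 10.9 to 13.8 CPM in Ocln-KO.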

How the data were processed

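Total RNA of whole epididymis was depleted of rRNA, made into directional libraries and sequenced, and the reads were aligned to GRCm38 with HISAT2 2.0.4 and assigned to genes with HTSeq by the study's methods and the submitters' processing notes. The authors deposited raw counts per gene and library, whole numbers without normalization, and the strand setting and the treatment of multiply aligned reads are not given in the sources used here. Symbols were used as listed, 27 of them turned into dates (0.145% of counts).

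Genotypes were compared with edgeR 4.0.16 in R 4.3.3 (filterByExpr, TMM, glmQLFit, glmQLFTest, Benjamini-Hochberg over 19691 genes). Effective library sizes were 31888400 to 37442400. Limits of 3 counts cover counting error only. Alternatives used DESeq2 1.42.0, limma 3.58.1 (voom), other scalings and filters, a replicate block and each library left out. Fits were tested on simulated data. With 3 libraries against 3, an exact two-sided permutation test cannot go below 0.1, and none was run. RPKM values were computed here from the union of GENCODE exons of GRCm38. The genes named are the 8 members, Ocln, listed genes that passed the test or partner a member, and the nearest profiles. Gpx5, Crisp1, Ros1 and Rnase9 were singled out among the marker lists after their values were seen. So were Crisp4, Defb21, Rnase13, Csf3r, Mmp8 and Mmp9, and the retinoid genes Cyp26b1 and Rdh11. The members and lists were chosen with earlier results of these data known. Protein sequences were not used here. Values of some listed transcription factors are not reported here.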

Additional observations from a re-analysis of the deposited data

How the results depend on the processing

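Of 90 log2 fold changes of tested lipocalins under 15 alternatives, 73 kept their direction and their side of the threshold, 9 lost the call, 1 gained it (Lcn12 without Ocln-KO replicate 1, 0.76) and 7 changed sign, none of them of Ptgds or Lcn2. Those that changed sign belonged to Lcn5 and Lcn8. Lcn5 was -0.072 with limma-voom and ran from -0.18 to 0.37 when each library was left out, and Lcn8 ran from -0.31 to 0.28. The number of lower lipocalins ran from 0 to 1 and that of higher lipocalins from 0 to 2 when a library was left out. Lower lipocalins numbered 0 when WT replicate 1, 2 or 3 was left out, and higher lipocalins 0 when any of these or Ocln-KO replicate 2 was, while 1 lipocalin in each direction still had an unadjusted p under 0.05 in edgeR. The genes called on the pathway lists numbered 11 with all libraries, 18 with DESeq2 and 0 to 12 when a library was left out, in a comparison added after seeing the data. The cause was not tested.

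Replicate numbers did not pair the libraries: deviations of libraries with the same number correlated at -0.05 to -0.003, and 0 of 6 libraries correlated best with its own number. With the replicate block, 0 lipocalins were lower and 0 higher (edgeR, 1 each at an unadjusted p under 0.05), 0 listed genes passed (25 at an unadjusted p under 0.05), Lcn5 was at -0.063, Ptgds had an adjusted p of 0.0765 and Lcn2 of 0.0813. Over all genes the block left 31 lower and 10 higher. With 3 libraries per genotype and 2 after leaving one out, calls near the threshold are not settled by these data. Lcn9 and Lcn10, at up to 4 and 18 counts, could not show a difference at this depth.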
